A study of Mus musculus with 23 samples.

Results

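The comparison set the 11 libraries labelled with a Dyrk1a knockout on the Dp16 background against the 7 libraries labelled Dp16 alone, 18 of the 23 libraries of the series, in hippocampus of mice. The 11 libraries carry 2 labels. Of these, 6 are labelled Dp16/D-KO, for the duplication with a knocked-out copy of Dyrk1a, and 5 are labelled Dp16;D-KO/K-KO, which adds a knocked-out copy of Kcnj6. The reference was Dp16, which is Dp(16)1/Yey, a duplication of the mouse chromosome 16 segment orthologous to human chromosome 21, and all 18 libraries carry it. The 5 WT libraries were used only to place levels beside the other groups. Libraries were chosen by label alone, and 13971 genes with a mean of at least 0.5 RPKM over the 23 libraries were tested. RPKM is a read number scaled to gene length and to the mapped reads of the library. The labels give batch 1 as total RNA from C57BL/6 mice of 2-3 months and batch 2 as polyA RNA from a background of >90% C57/B6, with no age among the labels used here for batch 2. Batch 1 holds 3 Dp16/D-KO, 2 Dp16;D-KO/K-KO and 3 Dp16 libraries, and batch 2 holds 3, 3 and 4. The labels do not state that each library came from a separate mouse, so p-values measure the spread between these libraries.

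Dyrk1a encodes a protein kinase of the dual-specificity family whose dosage shapes brain growth, the cell cycle and splicing, and it is a leading dosage-sensitive candidate in Down syndrome. Kcnj6 encodes GIRK2, a potassium channel subunit opened by G protein-coupled receptors such as GABA-B. Setting both knockout labels together against the unaltered duplication asks which transcripts differ from Dp16 on average over both labels. A single label can carry such an average, so each label is also set against Dp16 below. The hippocampus holds granule and pyramidal neurons with glia, vessels and adjoining choroid plexus, so a bulk library mixes all of them. In such a library fewer cells of a type and less RNA per cell cannot be told apart.

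Neither targeted gene was lower in the libraries labelled with its knockout. Dyrk1a had 21.3, 25.3 and 26.5 RPKM as the lowest, median and highest of the 11 libraries, against 22.7, 24.0 and 26.6 RPKM in the 7 Dp16 libraries. Both ranges lay above the 15.4 to 18.04 RPKM of the 5 WT libraries. The log2 change against Dp16 was 0.00 with a 95% interval of -0.06 to 0.07 (limma, adjusted p = 0.967), while going from 3 copies to 2 would give -0.585. Kcnj6 had 23.1, 26.01 and 27.1 RPKM in the Dp16;D-KO/K-KO libraries, from 23.4 to 27.6 RPKM in the Dp16/D-KO libraries and 23.2, 25.1 and 31.9 RPKM in the Dp16 libraries. The values of all 3 groups overlapped, with a log2 change of -0.06 in Dp16;D-KO/K-KO (limma, adjusted p = 0.775). RPKM over a whole gene cannot show a transcript with a small deletion or a frameshift. The genotypes below are therefore the labelled ones, and every direction is that of the libraries so labelled.

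In limma with batch as a covariate, 164 genes (1.17% of those tested) passed an adjusted p of 0.05 between the 11 libraries and Dp16, 113 of them higher (0.809%) and 51 lower (0.365%). With libraries rescaled by their median ratio the count was 118, 59 higher and 59 lower. The changes were small: the fold of the higher genes ran from 1.08 to 2.18 with a median of 1.15, and that of the lower genes from 0.371 to 0.912 with a median of 0.86. The absolute log2 change was at least 0.5 in 14 genes and under 0.25 in 107. Over all tested genes the median log2 change was 0.0102 and 54.5% were positive. The count rested on the fit: it was 1 with no batch covariate and 23 with the WT libraries in the same fit, all 23 of them among the 164. Fits of batch 1 or of batch 2 by itself gave 0. Leaving out 1 library moved it by over 1.5 times for 11 of the 18, to 55, 94, 63 and 49 without Dp16 F1, M1, M3 and M4, to 66, 95 and 60 without Dp16/D-KO F2, F3 and M3, and to 65, 85, 75 and 106 without Dp16;D-KO/K-KO F2, M1, M2 and M3. In every one of the 18 fits with a library left out, 35 of the 164 genes were called.

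**Figure D1:**
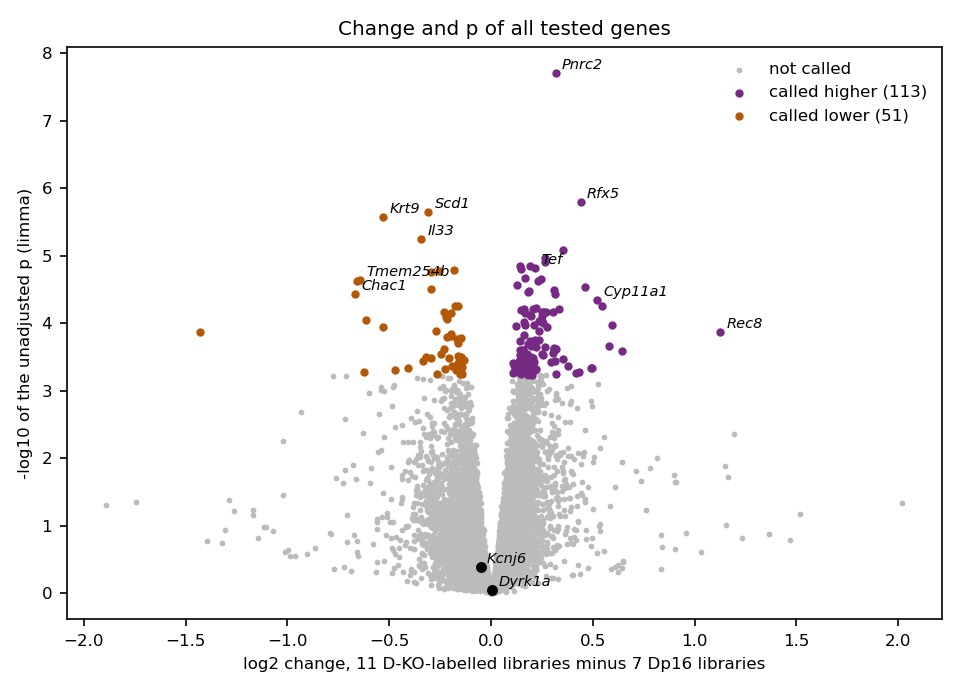
Each point is 1 of the 13971 tested genes, with the log2 change of the 11 D-KO-labelled libraries minus the 7 Dp16 libraries on the horizontal axis and -log10 of the unadjusted limma p on the vertical axis. The 113 called higher and 51 called lower genes mostly lie within 0.5 of zero, and Dyrk1a and Kcnj6 lie near the origin.

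Pnrc2, gene 52830 at chr4:135870917-135873846 in mm10, encodes an adaptor of mRNA decapping that also acts as a nuclear receptor coactivator. It had 24.3, 27.0, 24.4, 23.7, 22.6 and 26.7 RPKM in the Dp16/D-KO libraries F1 to M3 and 27.1, 26.5, 23.2, 23.4 and 23.9 RPKM in the Dp16;D-KO/K-KO libraries F1 to M3, against 18.3, 21.6, 21.99, 18.2, 18.9, 19.1 and 21.7 RPKM in the Dp16 libraries F1 to M4. Every one of the 11 libraries lay above every Dp16 library. The log2 change was 0.32 ± 0.034 (SE), the smallest adjusted p of the comparison (limma, adjusted p = 0.000273), and it stayed called whichever single library was left out, with adjusted p at most 0.00184. It was not called with no covariate or in either batch alone. The 5 WT libraries had 21.0 to 28.8 RPKM, so the Dp16 libraries were the low group.

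Eif4a1, the RNA helicase of the complex that binds the mRNA cap, also separated the groups, with 126, 133 and 137 RPKM as the lowest, median and highest of the 11 libraries and 117, 119 and 125 RPKM in Dp16. It rose by a log2 of 0.14 ± 0.024 (limma, adjusted p = 0.0164), and WT had 124 to 135 RPKM. It was 1 of 17 tested genes of translation initiation, whose median log2 change was -0.0573, with 13 members below zero and no other call. Of the 78 tested cytosolic ribosomal protein genes 55 were above zero, with a median of 0.0639, while 54.5% of all tested genes were above zero. Rpl27a (174, 188 and 216 RPKM, against 150, 164 and 188 in Dp16) and Rpl11 rose, by 0.19 and 0.14 on the log2 scale, and Rps6 fell by 0.30. Rpl27a was called in all 18 fits with a library left out, Rpl11 in 6 and Rps6 in 7, and Rpl11 was not called with libraries rescaled by their median ratio. Ribosomal protein genes have many processed copies in the genome, and the sources used here do not give how reads shared with such copies were counted. Rps6 stood at 6.72 to 8.74 RPKM in the 11 libraries and 8.46 to 11.7 in Dp16, far below the level of Rpl11 (229 to 263 and 203 to 242 RPKM), so its value is uncertain.

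Among all tested genes, 7 were higher in every one of the 11 libraries than in any Dp16 library (0.0501%) and 2 were lower in every one (0.0143%). Beside Pnrc2 and Eif4a1, the higher ones were Cops8, a subunit of the COP9 signalosome, H3f3b, which encodes histone H3.3, Ncs1, a neuronal calcium sensor, Rheb, the GTPase that activates mTORC1, and Commd8. Cops8 had 42.7, 45.0 and 48.9 RPKM in the 11 libraries and 36.9, 40.7 and 41.4 RPKM in Dp16. H3f3b had 81.1, 84.8 and 97.3 RPKM in the 11 libraries and 68.2, 78.3 and 80.2 RPKM in Dp16. Both rose (limma, adjusted p = 0.0168 and 0.0468), by 0.17 and 0.15 on the log2 scale, whereas Ncs1, Rheb and Commd8 had adjusted p of 0.0505, 0.054 and 0.0556. The lower ones were Scn7a, a sodium channel gene, and the predicted gene Gm16867. Scn7a had 0.35 to 0.57 RPKM in the 11 libraries and 0.59 to 0.78 RPKM in Dp16, and was not called (adjusted p = 0.0865). Gm16867 had 0.24 to 3.1 RPKM in the 11 libraries and 3.89 to 5.33 RPKM in Dp16. It lies at a locus with near-identical gene copies, described below, where single values are uncertain. Cops8 was called in all 18 fits with a library left out and H3f3b in 4, with adjusted p as high as 0.0967. H3f3b was not called with libraries rescaled by their median ratio, and then 1 gene was higher and 3 were lower without overlap.

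**Figure D2:**
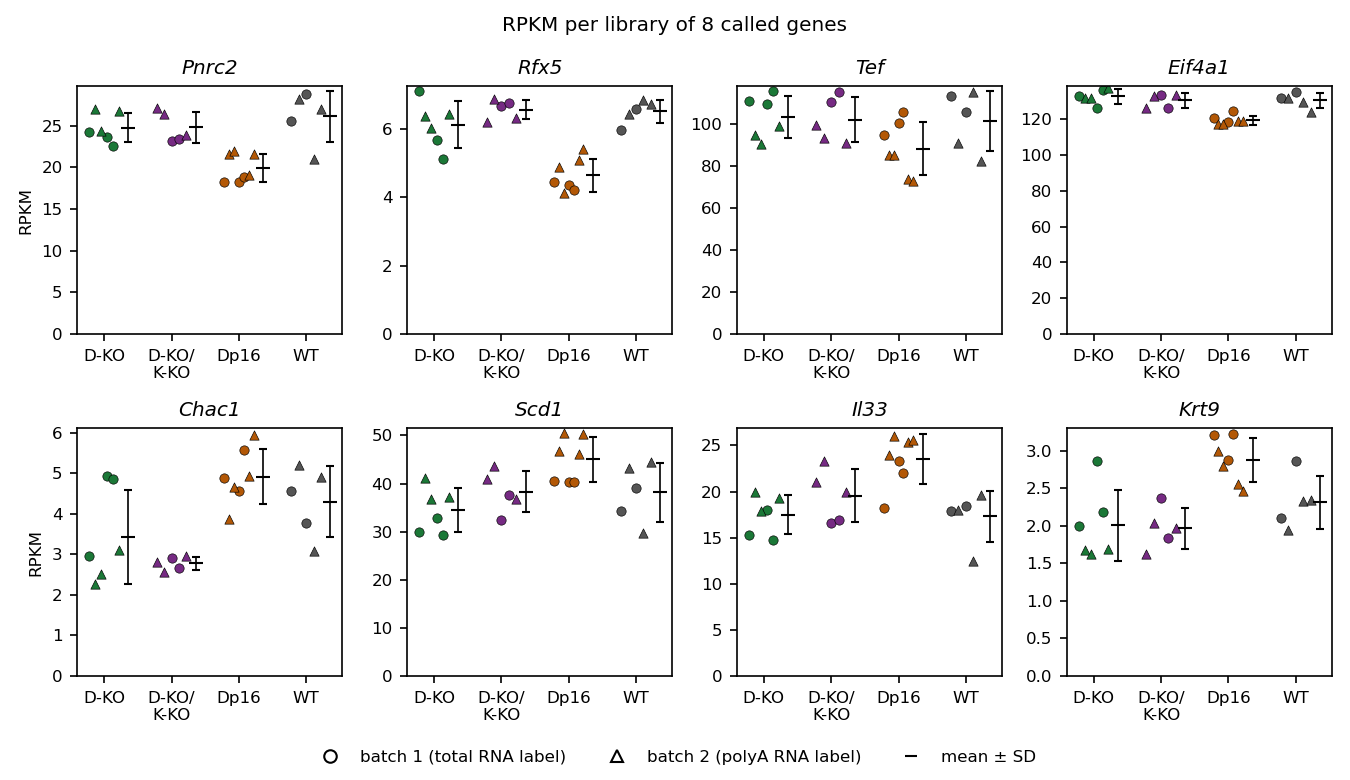
RPKM of 8 called genes, 1 point per library, in the groups Dp16/D-KO (D-KO), Dp16;D-KO/K-KO, Dp16 and WT, with the batch as the point's shape and the mean ± SD beside each group. Pnrc2 and Eif4a1 do not overlap between the 11 D-KO-labelled libraries and Dp16, and in Chac1 the Dp16/D-KO libraries M1 and M2 lie at the level of Dp16.

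Rfx5 encodes a subunit of the RFX complex, which binds the promoters of MHC class II genes. It had 7.10, 6.36, 6.02, 5.68, 5.11 and 6.42 RPKM in the Dp16/D-KO libraries and 6.20, 6.87, 6.67, 6.74 and 6.32 RPKM in the Dp16;D-KO/K-KO libraries, against 4.44, 4.87, 4.12, 4.37, 4.21, 5.08 and 5.40 RPKM in Dp16. A single Dp16/D-KO library, M2, fell within the Dp16 range. The log2 change was 0.44 ± 0.064 (limma, adjusted p = 0.00941), it was 0.51 in batch 1 and 0.39 in batch 2, and it was the 1 call made with no covariate. The WT libraries had 5.97 to 6.84 RPKM. The other RFX complex genes and their targets were looked at after these values were seen. Rfxap rose (12.3 to 15.3 RPKM in the 11 libraries, 11.8 to 12.7 RPKM in Dp16, log2 0.17, adjusted p = 0.0225), and Rfxank had a log2 change of 0.20 (adjusted p = 0.0885). The MHC class II genes H2-Aa, H2-Ab1 and H2-Eb1 had log2 changes of -0.25, -0.20 and -0.16, and none was called (adjusted p = 0.808, 0.8 and 0.808).

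The circadian clock runs on a loop in which CLOCK and ARNTL switch on the Per, Cry and Nr1d genes through the E-box, and PAR bZIP factors such as TEF and DBP act through the D-box. Of 18 tested clock genes 16 were above zero, with a median log2 change of 0.102, and 4 rose: Tef, Per2, Per3 and Nr1d1. By batch the median of the list was 0.163 in batch 1 and 0.0522 in batch 2. Of all tested genes 54.5% were above zero and 0.809% were called higher. The mean log2 level of the list was 3.75, 3.81 and 3.87 as lowest, median and highest of the 11 libraries and 3.63, 3.68 and 3.79 in Dp16. Of the Dp16 libraries, F2 alone lay above the lowest of the 11. Per2 and Nr1d1 were not called with libraries rescaled by their median ratio. Per2, Per3 and Nr1d1 encode repressors of the loop, while Tef is an output factor.

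Tef had 90.4, 99.6 and 116 RPKM in the 11 libraries and 72.7, 85.4 and 106 RPKM in Dp16, and within each batch the 11 libraries were higher, by a log2 of 0.17 and 0.26. Its change of 0.22 ± 0.038 (limma, adjusted p = 0.0164) stayed called whichever single library was left out. Per2 had 8.40, 10.2 and 11.4 RPKM in the 11 libraries and 7.02, 8.27 and 9.08 RPKM in Dp16. Per3 had 8.44, 10.3 and 12.95 RPKM in the 11 libraries and 6.14, 9.0 and 10.9 RPKM in Dp16. Nr1d1, which encodes the repressor REV-ERB alpha, had 25.7, 38.5 and 45.7 RPKM in the 11 libraries and 24.0, 31.7 and 36.7 RPKM in Dp16. The groups overlapped for all 4. The log2 changes of Per2, Per3 and Nr1d1 were 0.27, 0.30 and 0.20 (limma, adjusted p = 0.0382, 0.0424 and 0.0472), and they were called in 8, 7 and 3 of the 18 fits with a library left out. Dbp and Nr1d2, chosen after their values were seen, had log2 changes of 0.30 and 0.20 without a call (adjusted p = 0.0999 and 0.0643), and Arntl and Clock, on the activating side of the loop, had -0.10 and -0.02. The sources used here do not give the hour at which tissue was taken, and its part in these values was not tested.

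The promoter windows of the called clock genes are shown for the E-box CACGTG and the D-box TTATGNAA, read on both strands, in 300 bases from 250 before to 50 after each RefSeq start in GRCm38.p6, the assembly of mm10. The motifs were chosen after the values were seen. Per3 holds a pair of D-boxes, which begin 205 and 158 bases before the start, and both Tef starts hold an E-box, 127 and 138 bases before them. Capitals mark the motifs, each sequence runs 5′ to 3′ on the gene's strand, and no match overlaps another.
Per3, chr4:151044616-151044915, minus strand: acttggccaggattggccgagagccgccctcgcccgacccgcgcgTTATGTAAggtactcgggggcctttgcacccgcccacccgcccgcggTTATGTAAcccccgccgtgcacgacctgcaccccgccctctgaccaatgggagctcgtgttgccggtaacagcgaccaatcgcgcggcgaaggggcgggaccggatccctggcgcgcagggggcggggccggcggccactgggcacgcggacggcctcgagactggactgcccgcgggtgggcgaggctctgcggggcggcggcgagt
Tef, chr15:81802423-81802722, plus strand: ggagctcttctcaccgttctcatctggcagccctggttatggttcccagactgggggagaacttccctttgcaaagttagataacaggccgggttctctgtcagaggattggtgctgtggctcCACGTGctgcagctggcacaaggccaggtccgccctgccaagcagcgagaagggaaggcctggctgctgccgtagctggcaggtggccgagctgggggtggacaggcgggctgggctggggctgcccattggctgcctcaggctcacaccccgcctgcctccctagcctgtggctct
Tef, chr15:81811164-81811463, plus strand: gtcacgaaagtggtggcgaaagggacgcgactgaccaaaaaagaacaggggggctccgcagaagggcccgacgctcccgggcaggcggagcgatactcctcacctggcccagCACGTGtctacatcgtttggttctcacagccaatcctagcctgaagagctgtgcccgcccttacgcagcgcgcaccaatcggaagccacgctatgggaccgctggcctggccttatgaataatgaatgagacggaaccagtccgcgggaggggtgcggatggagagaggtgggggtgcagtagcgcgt
The window of Nr1d1 holds neither motif, and Per2 had no window. Of the windows of all tested genes 9.39% hold the E-box and 2.01% the D-box, against 6 and 2 of the 22 windows of the clock list. Among windows of the called genes the E-box was in 11 of 122 of the higher and 5 of 53 of the lower genes, near that share. The D-box was in 2 of 122 of the higher (1.64%) and 5 of 53 of the lower genes (9.43%). A match describes these letters and shows no binding.

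Chac1 fell in most of the 11 libraries. It encodes an enzyme that degrades glutathione and is a target of the transcription factor ATF4, which is made when the integrated stress response slows translation. It had 2.95, 2.27, 2.52, 4.92, 4.85 and 3.10 RPKM in the Dp16/D-KO libraries and 2.80, 2.57, 2.91, 2.66 and 2.95 RPKM in the Dp16;D-KO/K-KO libraries, against 4.89, 3.86, 4.65, 4.56, 5.56, 4.93 and 5.93 RPKM in Dp16. All libraries but Dp16/D-KO M1 and M2 lay below every Dp16 library, and WT had 3.07 to 5.19 RPKM. Chac1 fell by a log2 of 0.67 ± 0.125 (limma, adjusted p = 0.0186), the largest fall among called genes of at least 1 RPKM that are not predicted ones. It was -0.49 in batch 1 and -0.81 in batch 2, and called whichever single library was left out, with adjusted p at most 0.0462. Cars, the cysteinyl-tRNA synthetase, fell by 0.29 (13.4 ± 1.98 RPKM in the 11 libraries and 16.3 ± 1.12 RPKM in Dp16, mean ± SD, adjusted p = 0.0164).

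Of 17 tested genes of the integrated stress and unfolded protein response, Chac1 was the only call, 12 were above zero, and the median was 0.101. The members with negative changes beside Chac1 were Atf5 (-0.32, adjusted p = 0.104), Atf4 (-0.30, adjusted p = 0.0529), Asns, the asparagine synthetase (-0.15, adjusted p = 0.19), and Hsp90b1 (-0.01). Genes of the endoplasmic reticulum such as Hspa5 and Xbp1 had 0.20 and 0.23, neither called (adjusted p = 0.292 and 0.0626). The 20 cytosolic tRNA synthetases were listed after Cars was seen. Of these 16 were below zero with a median of -0.0369, and Iars (-0.16, adjusted p = 0.0225) and Nars (-0.14, adjusted p = 0.0493) fell beside Cars. Among all tested genes 54.5% were above zero and 0.365% were called lower. Iars had 12.9, 14.2 and 16.0 RPKM in the 11 libraries and 14.6, 15.8 and 16.9 RPKM in Dp16.

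The windows of Chac1 and Iars both hold the letters TTGCATCA, a match on the reverse complement to the ATF4 element searched, TGATGNAA. The element is in 2.32% of the windows of all tested genes and 4 of 18 windows of the stress list. Among called genes it is in 3 of 53 windows of the lower and 2 of 122 windows of the higher ones. The 3 windows of the lower genes belong to 3 genes, Chac1 and Iars among them, so Cars and Nars do not both hold it. Of the called synthetases only the window of Iars is shown. The element begins 193 bases before the start in Chac1 and at base 8 of the transcript in Iars, and it is in capitals.
Chac1, chr2:119350992-119351291, plus strand: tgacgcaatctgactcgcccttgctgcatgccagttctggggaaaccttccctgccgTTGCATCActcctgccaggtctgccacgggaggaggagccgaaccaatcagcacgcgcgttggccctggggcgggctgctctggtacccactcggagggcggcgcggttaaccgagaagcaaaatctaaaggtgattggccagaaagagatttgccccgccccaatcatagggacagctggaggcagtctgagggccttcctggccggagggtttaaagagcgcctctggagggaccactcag
Iars, chr13:49681880-49682179, plus strand: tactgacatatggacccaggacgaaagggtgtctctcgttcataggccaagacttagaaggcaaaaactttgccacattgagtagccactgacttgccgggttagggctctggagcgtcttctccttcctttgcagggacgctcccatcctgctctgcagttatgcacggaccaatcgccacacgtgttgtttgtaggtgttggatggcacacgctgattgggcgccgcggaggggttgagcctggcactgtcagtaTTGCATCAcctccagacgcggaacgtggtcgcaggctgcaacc
The element was chosen after the values were seen, and both sequences are from RefSeq as above.

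Among lipid and steroid enzymes, Scd1 fell and Cyp11a1 rose. Scd1, the desaturase that makes oleate from stearate, had 29.4, 36.9 and 43.7 RPKM in the 11 libraries and 40.4, 46.1 and 50.5 RPKM in Dp16, and the ranges overlapped. It fell by a log2 of 0.31 ± 0.046 (limma, adjusted p = 0.00941), by 0.32 in batch 1 and 0.30 in batch 2. Of the other 13 tested genes of fatty acid synthesis none was called, and the median of the 14 was -0.0267. Cyp11a1 makes pregnenolone from cholesterol, the entry step of steroid synthesis. It had 1.32, 1.80 and 2.20 RPKM in the 11 libraries and 0.94, 1.19 and 1.37 RPKM in Dp16, with 2 Dp16;D-KO/K-KO libraries inside the Dp16 range. It rose by 0.52 ± 0.099 (limma, adjusted p = 0.0221), and the 5 WT libraries had 1.93 to 2.57 RPKM, above every Dp16 library. Of 7 tested neurosteroid genes 6 were above zero, with a median of 0.0875 and Cyp11a1 as the call. Over all tested genes 54.5% were above zero, 0.809% were called higher and 0.365% lower. In cholesterol synthesis 0 of 22 genes were called, with a median of -0.0263.

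Glial and immune genes gave single calls on both sides. Il33, an alarmin cytokine made in the brain by glia, had 14.7, 18.01 and 23.4 RPKM in the 11 libraries and 18.3, 23.9 and 25.97 RPKM in Dp16. It fell by 0.34 ± 0.055 (limma, adjusted p = 0.0157), and the WT libraries, at 12.5 to 19.6 RPKM, lay beside the 11. Gfap, the intermediate filament of astrocytes, had 132, 144 and 158 RPKM in the 11 libraries and 143, 171 and 195 RPKM in Dp16, and fell by 0.24 (adjusted p = 0.0427). Gfap was the 1 call of 12 astrocyte markers, 8 of which were above zero. Over all tested genes 54.5% were above zero, 0.365% were called lower and 0.809% higher. Tmem119, a marker of microglia, rose by 0.21 (8.46 to 9.97 RPKM in the 11 libraries, 6.77 to 8.76 RPKM in Dp16, adjusted p = 0.0472) and was the 1 call of 12 microglial markers, whose median was -0.012. Cfp, which encodes properdin of the complement system, rose by 0.33 (adjusted p = 0.0225), a call lost without Dp16 F1 or M4. Gfap and Tmem119 were called in 6 and 4 of the 18 fits with a library left out, with adjusted p as high as 0.0852 without Dp16 M4 for Gfap and 0.0945 without Dp16 M3 for Tmem119. Tmem119 was not called with libraries rescaled by their median ratio. Of 25 tested interferon response genes 22 were below zero, with a median of -0.119, and 0 were called. Their median was -0.0212 in Dp16;D-KO/K-KO and -0.205 in Dp16/D-KO. By batch the pooled median was -0.00716 in batch 1 and -0.221 in batch 2.

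Synaptic and signalling genes were called one by one. Gnb5, a G protein beta subunit that pairs with RGS proteins at GIRK channels, rose by 0.12 (44.7, 47.2 and 49.7 RPKM in the 11 libraries, 40.1, 43.9 and 45.5 RPKM in Dp16, adjusted p = 0.0468). It was the 1 call of 10 genes of the GIRK and GABA-B list, whose median was -0.0167. Over all tested genes 0.809% were called higher and 0.365% lower. Cpne9, a copine that binds phospholipid with calcium, rose by 0.38 (4.48, 5.90 and 7.78 RPKM in the 11 libraries, 4.12, 4.44 and 4.95 RPKM in Dp16, adjusted p = 0.0468), while Lypd6b, which acts on nicotinic receptors, fell by 0.41 (adjusted p = 0.0468). The protocadherin gene Pcdhga4 fell by 0.27 (adjusted p = 0.0493), and it shares its constant exons with the other gamma protocadherins, so its value is uncertain. Gnb5, Cpne9, Lypd6b and Pcdhga4 were called in 4, 4, 3 and 2 of the 18 fits with a library left out, and Gnb5 was not called after median-ratio rescaling. Of 25 genes of ionotropic glutamate and GABA-A receptors 0 were called, with Grin2b nearest at a log2 change of -0.54 (adjusted p = 0.0557).

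Among 16 genes around DYRK1A and calcineurin, Dcaf7 was the 1 call. Over all tested genes 0.809% were called higher and 54.5% were above zero. Dcaf7 encodes a WD40 scaffold that binds DYRK1A. It had 39.6, 44.2 and 47.3 RPKM in the 11 libraries and 33.7, 39.5 and 43.1 RPKM in Dp16, and rose by 0.17 ± 0.034 (limma, adjusted p = 0.0262). Without Dp16 M3 or M4, Dp16/D-KO F2 or Dp16;D-KO/K-KO F2 its adjusted p passed 0.05, at most 0.0609, and it was not called with libraries rescaled by their median ratio. The median of the list was 0.0112, and it was below zero after that rescaling. Ccnd2, the cyclin D2 gene of dividing and differentiating progenitors, rose by 0.25 (14.3, 16.7 and 20.4 RPKM in the 11 libraries, 12.4, 14.0 and 16.5 RPKM in Dp16, adjusted p = 0.0431). It was the 1 call of 9 tested genes of neurogenesis and cell cycle, 7 of which were above zero with a median of 0.137, and it was called in 8 of the 18 fits with a library left out. The median of that list was 0.234 in Dp16;D-KO/K-KO and -0.00723 in Dp16/D-KO.

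Over all tested genes 1.17% were called and 54.5% were above zero. None of the 78 tested genes of the duplicated segment was called, and 43 were above zero. Their median log2 change was 0.00665, a median that also turned negative after rescaling. Those with the smallest p were Usp25, a deubiquitinase (12.9, 13.8 and 15.3 RPKM in the 11 libraries, 14.5, 15.3 and 16.1 RPKM in Dp16, log2 -0.15, adjusted p = 0.0584), and Ets2, a transcription factor (31.3, 34.3 and 38.3 RPKM in the 11 libraries, 28.5, 31.1 and 33.3 RPKM in Dp16, log2 0.15, adjusted p = 0.0699). WT had 9.87 to 11.3 RPKM of Usp25 and 20.04 to 23.8 RPKM of Ets2, below both groups.

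Rec8, a cohesin subunit known from meiosis, showed the largest rise. It had 0.89, 1.45 and 2.64 RPKM in the 11 libraries and 0.30, 0.53 and 1.21 RPKM in Dp16, and rose by 1.12 ± 0.236 (limma, adjusted p = 0.0298). The rise was 0.85 in Dp16/D-KO and 1.46 in Dp16;D-KO/K-KO, with an unadjusted p of 0.0347 for the difference, and it was called in 13 of the 18 fits with a library left out. Wdfy1, an endosomal protein with a FYVE domain, had 6.79, 9.34 and 12.2 RPKM in the 11 libraries and 5.19, 6.10 and 7.77 RPKM in Dp16, and rose by 0.55 (adjusted p = 0.0225), a call lost without Dp16 M4. Tex30, Myoc, Traip, Acta2 and Casp6 rose by 0.46, 0.49, 0.43, 0.42 and 0.35. Myoc encodes myocilin, Traip a ubiquitin ligase of DNA repair, Acta2 the actin of smooth muscle and Casp6 a caspase. Of these 5, Tex30 (1.75, 2.20 and 2.73 RPKM in the 11 libraries, 1.37, 1.57 and 1.79 RPKM in Dp16, adjusted p = 0.0183) stayed called whichever single library was left out, and the other 4 were called in 2 to 5 of the 18 such fits. After median-ratio rescaling Traip and Acta2 were not called. The same stability over single libraries held for 3 genes with small p: Sertad1, which binds CDK4, rose by 0.35, Bloc1s2, of the lysosome-related BLOC-1 complex, by 0.27, and the uridine kinase gene Uck1 by 0.26.

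Among the lower genes, Krt9, a keratin best known from palm and sole skin, had 1.62, 1.97 and 2.86 RPKM in the 11 libraries and 2.47, 2.88 and 3.22 RPKM in Dp16. Only Dp16/D-KO M1 lay above the lowest Dp16 library, and WT had 1.94 to 2.87 RPKM. Krt9 fell by 0.53 ± 0.081 (limma, adjusted p = 0.00941), by 0.46 in batch 1 and 0.59 in batch 2. Filip1, a partner of filamin A, fell by 0.53 (1.62, 1.98 and 3.03 RPKM in the 11 libraries, 2.54, 2.99 and 3.64 RPKM in Dp16, adjusted p = 0.0263), and was called in 14 of the 18 fits with a library left out. Cln8, an endoplasmic reticulum protein mutated in a form of neuronal ceroid lipofuscinosis, fell by 0.26, and Dnajb14, a chaperone partner of the same membrane, by 0.18 (both adjusted p = 0.0164). Rassf3, Snrpd1, Luzp2 and Nudt3 fell by 0.33, 0.32, 0.29 and 0.27, and were called in 6, 6, 18 and 12 of the 18 fits with a library left out. Snrpd1, a core protein of spliceosomal small nuclear ribonucleoproteins, has near-identical copies in the genome, so its value is uncertain.

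Several of the largest changes lay at loci with near-identical gene copies. On chromosome 14, Entpd4b (chr14:69555401-69584940 in mm10) had 16.9, 20.6 and 32.5 RPKM in the 11 libraries and 29.9, 35.7 and 44.3 RPKM in Dp16, and fell by 0.66 (limma, adjusted p = 0.0168). Its neighbour and near copy Entpd4 (chr14:69337151-69366742) had 4.56, 11.8 and 14.6 RPKM in the 11 libraries and 13.2, 19.1 and 27.7 RPKM in Dp16, with a log2 change of -0.78 (adjusted p = 0.0504). Gm16867, a predicted gene that overlaps the end of Entpd4, was the called gene with the largest fall, -1.43 (adjusted p = 0.0297). Tmem254b, at another place on that chromosome (chr14:26203366-26207025), had 18.2, 23.6 and 38.1 RPKM in the 11 libraries and 31.6, 37.7 and 42.4 RPKM in Dp16, while WT ran from 4.77 to 32.7 RPKM. It fell by 0.64 (adjusted p = 0.0168), beside -0.53 and -0.09 for its copies Tmem254a and Tmem254c, neither called. Reads shared among such copies could be split in ways the sources used here do not give, so single values are uncertain.

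On chromosome 17, Tmem181a (chr17:6256726-6308314) and Dynlt1f, a dynein light chain gene farther along (chr17:6646606-6655965), both rose, and were called in 14 and 8 of the 18 fits with a library left out. Tmem181a had 72.8, 95.5 and 149 RPKM in the 11 libraries and 56.8, 68.0 and 76.0 RPKM in Dp16, and Dynlt1f had 10.3, 18.2 and 31.6 RPKM in the 11 libraries and 8.02, 14.6 and 15.8 RPKM in Dp16. Their log2 changes were 0.84 and 0.94 in Dp16;D-KO/K-KO and 0.38 and 0.39 in Dp16/D-KO. The unadjusted p of the difference between the genotypes was 0.00075 and 0.000589, and 0 of 13971 genes passed the adjusted threshold for that difference. WT ran from 56.7 to 113 RPKM for Tmem181a. Dynlt1f has near-identical copies beside it, of which Dynlt1a, Dynlt1b and Dynlt1c had log2 changes of 0.27, 0.46 and 0.22 with no call.

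Lrrc17, which encodes a leucine-rich repeat protein, was called with levels far apart between the batches. In batch 1 it had 14.5, 17.4 and 18.8 RPKM in Dp16/D-KO, 15.7 and 24.9 RPKM in Dp16;D-KO/K-KO and 9.94, 8.67 and 12.6 RPKM in Dp16, with no overlap. In batch 2 it had 1089, 1492 and 1633 RPKM in Dp16/D-KO, 1654, 1386 and 1269 RPKM in Dp16;D-KO/K-KO and 1198, 1158, 1092 and 1250 RPKM in Dp16, and 1 Dp16/D-KO library lay below all Dp16 libraries. The log2 change was 0.80 in batch 1, 0.26 in batch 2 and 0.50 over both (limma, adjusted p = 0.0468). It was called in 4 of the 18 fits with a library left out and not after rescaling by the median ratio.

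Each label was also set against the same 7 Dp16 libraries in a fit with 3 groups, so both share their reference. Dp16;D-KO/K-KO alone gave 5 calls (0.0358%) and Dp16/D-KO alone gave 136 (0.973%). Of the 164 pooled calls, 5 were also called in Dp16;D-KO/K-KO alone and 69 in Dp16/D-KO alone. For Pnrc2 the log2 change was 0.31 in Dp16;D-KO/K-KO and 0.32 in Dp16/D-KO (limma, adjusted p = 0.0044 and 0.00282). For Rfx5 it was 0.49 and 0.39 (adjusted p = 0.0156 and 0.021), for Tef 0.22 and 0.21 (adjusted p = 0.0648 and 0.0393), for Chac1 -0.78 and -0.57 (adjusted p = 0.0648 and 0.0552), and for Krt9 -0.52 and -0.54 (adjusted p = 0.0648 and 0.0196). For Scd1 it was -0.24 and -0.36 (adjusted p = 0.0648 and 0.00282), with an unadjusted p of 0.0256 for the difference, and for Il33 -0.27 and -0.40 (adjusted p = 0.07 and 0.00621).

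Between the labels themselves, Dp16;D-KO/K-KO against Dp16/D-KO, 0 genes passed an adjusted p of 0.05 in limma, 1494 (10.7%) had an unadjusted p under 0.05, and the smallest adjusted p was 0.15. Of the 164 genes called in the pooled comparison, 12 had an unadjusted p under 0.05 for that difference. Their absolute difference between the labels had a median of 0.0501 on the log2 scale and ran from 0.000883 to 0.611. For Pnrc2 the difference was -0.01 with a 95% interval of -0.11 to 0.08, and for Chac1 it was -0.21 with an interval of -0.53 to 0.11. A p that misses the threshold does not show that the labels act alike.

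**Figure D3:**
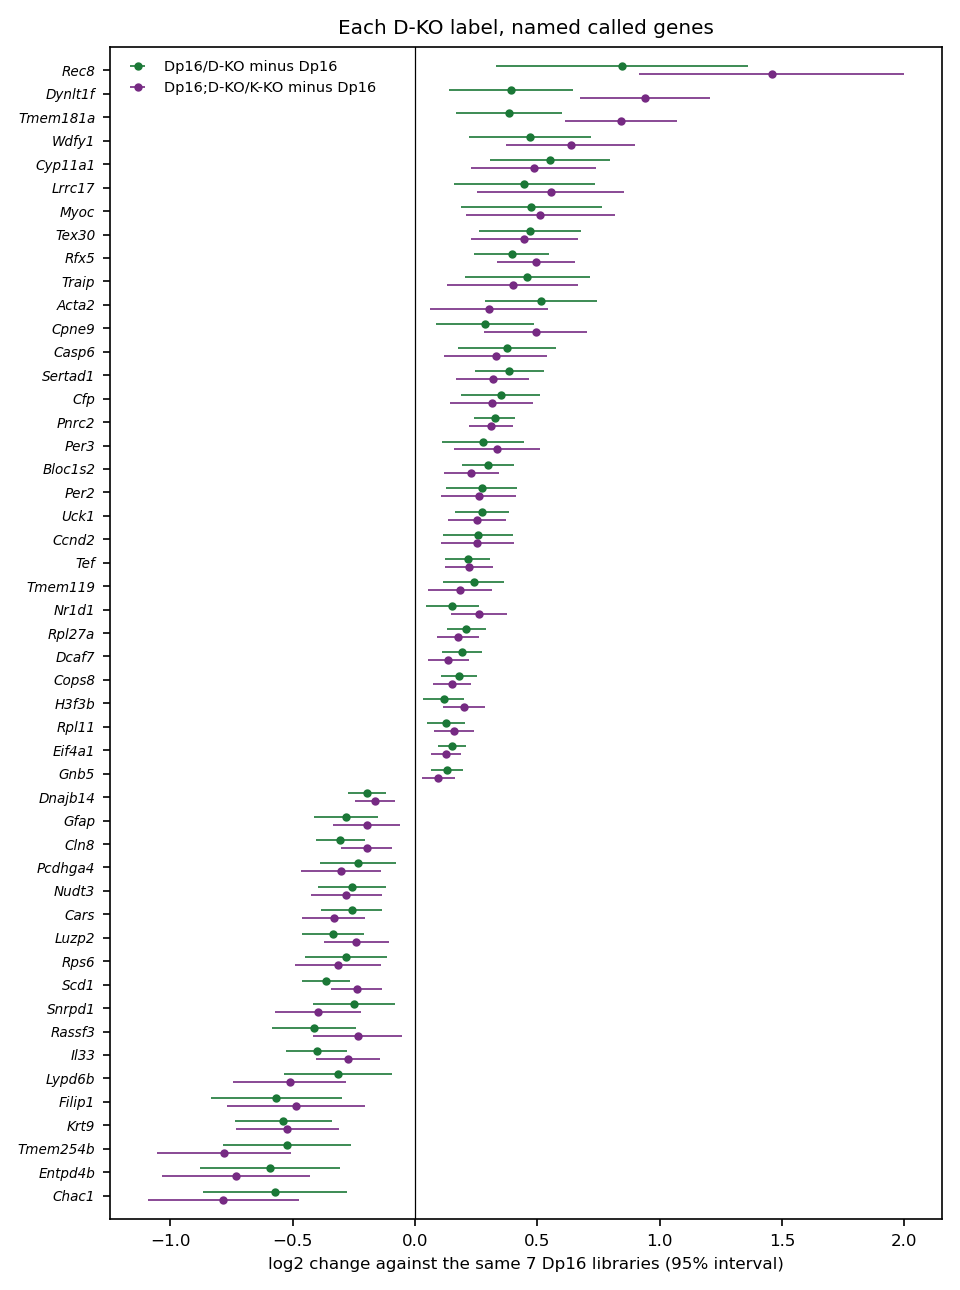
Log2 change with its 95% interval of the called genes named in the text in Dp16/D-KO and in Dp16;D-KO/K-KO, each against the same 7 Dp16 libraries, ordered by the pooled change. The genes were called with both labels pooled, so the side of zero follows from the choice, and the distance between the 2 points is largest for Rec8, Dynlt1f and Tmem181a.

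The pooled change was compared between batches and between the sex letters of the titles by interaction terms. For batch 0 genes passed an adjusted p of 0.05 in limma and 4.47% had an unadjusted p under 0.05, 6 of them among the 164. For sex letter 0 genes passed and 551 (3.94%) had an unadjusted p under 0.05, 4 of them among the 164.

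Markers of cell types outside the principal neurons differed between libraries and between the labels. The 20 oligodendrocyte and myelin genes summed to 1550, 3160 and 4210 RPKM as lowest, median and highest of the 11 libraries and 2630, 3800 and 4160 RPKM in Dp16. All 20 had a negative pooled change, with a median of -0.25, and 0 were called, while 54.5% of all tested genes were above zero. The median was -0.0317 in Dp16;D-KO/K-KO and -0.435 in Dp16/D-KO. Opalin, a myelin membrane protein, had 10.5, 17.1 and 23.8 RPKM in the 11 libraries and 17.9, 20.3 and 25.01 RPKM in Dp16, with -0.15 in Dp16;D-KO/K-KO and -0.63 in Dp16/D-KO (unadjusted p = 0.00131 for the difference, limma). With the mean level of the myelin list as a covariate, 143 genes were called, 74 higher and 69 lower, 92 of them among the 164. Of the named called genes, Per2, Nr1d1, Gfap, Tmem119, Cfp, Acta2, Traip, Lrrc17, Gnb5, Pcdhga4, Filip1, Rassf3 and Rps6 were not called in that fit and the others were.

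The 16 choroid plexus genes, of the epithelium that makes cerebrospinal fluid, summed to 19.1, 640 and 3950 RPKM in the 11 libraries and 40, 120 and 3750 RPKM in Dp16, so both groups spanned low and high levels. The median change was -0.188 pooled, 0.851 in Dp16;D-KO/K-KO and -1.09 in Dp16/D-KO, and 0 of 16 were called. With the level of that list as a covariate 342 genes were called, all 164 among them. The 10 tested genes of ependyma and motile cilia had a pooled median of -0.218, and of 0.149 with the myelin level as a covariate. By label, without that covariate, the median was 0.232 in Dp16;D-KO/K-KO and -0.594 in Dp16/D-KO. Of 24 immediate early genes, which neurons switch on when active, 21 were above zero with a median of 0.163 and 0 were called. Among all tested genes 54.5% were above zero. Egr3 (28.2, 33.8 and 47.6 RPKM in the 11 libraries, 23.6, 30.6 and 35.7 RPKM in Dp16) had 0.26 (adjusted p = 0.0652) and Nptx2 0.29 (adjusted p = 0.0771). The markers of dentate granule, CA1, CA2 and CA3 neurons and of interneurons gave 0 calls among 42, with medians between -0.0562 and 0.0739. The part of any of these levels in the called genes was not tested beyond the covariate fits.

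**Figure D4:**
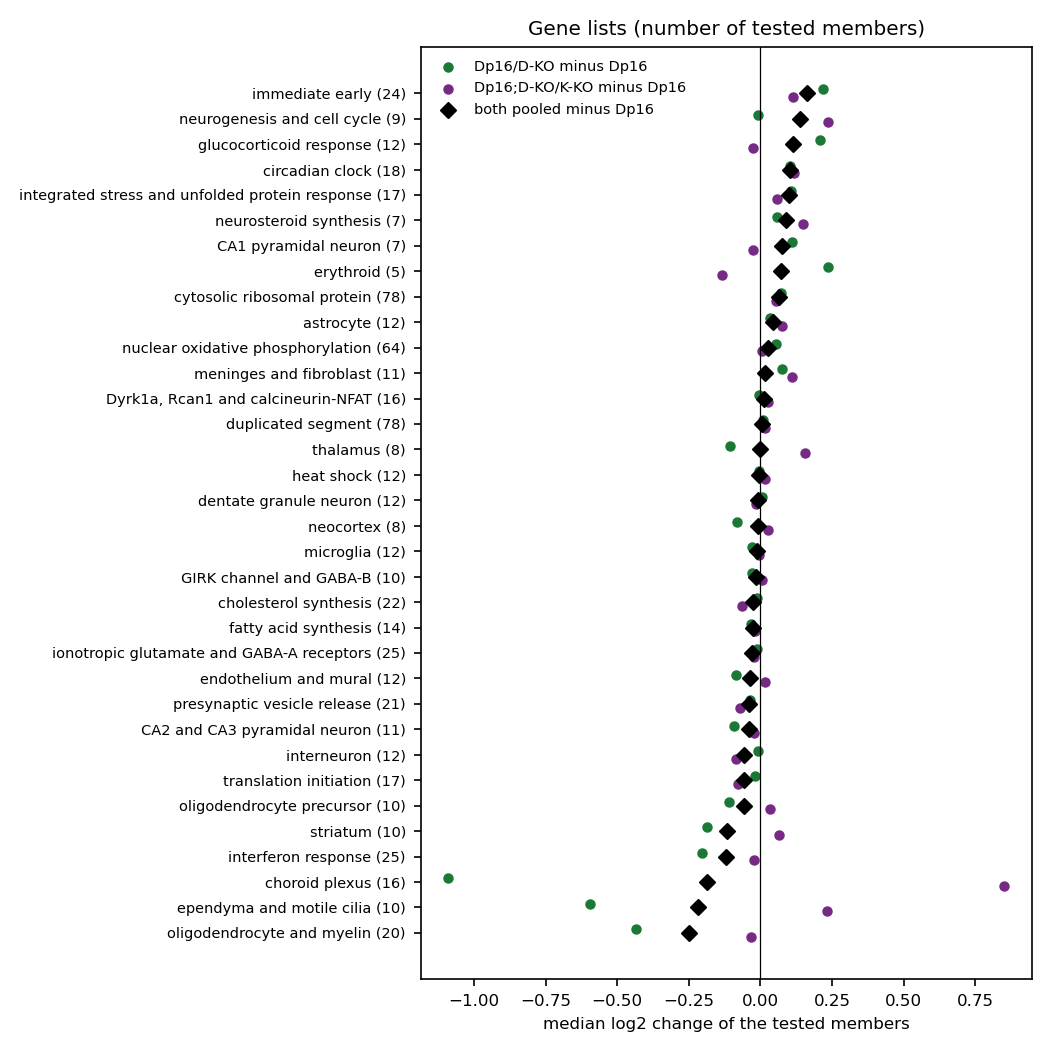
Median log2 change of the tested members of 34 gene lists for Dp16/D-KO, Dp16;D-KO/K-KO and both pooled, each minus Dp16, with the number of tested members in brackets. The choroid plexus list lies on opposite sides for the 2 labels, and the circadian clock list lies at nearly the same place for both.

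**Figure D5:**
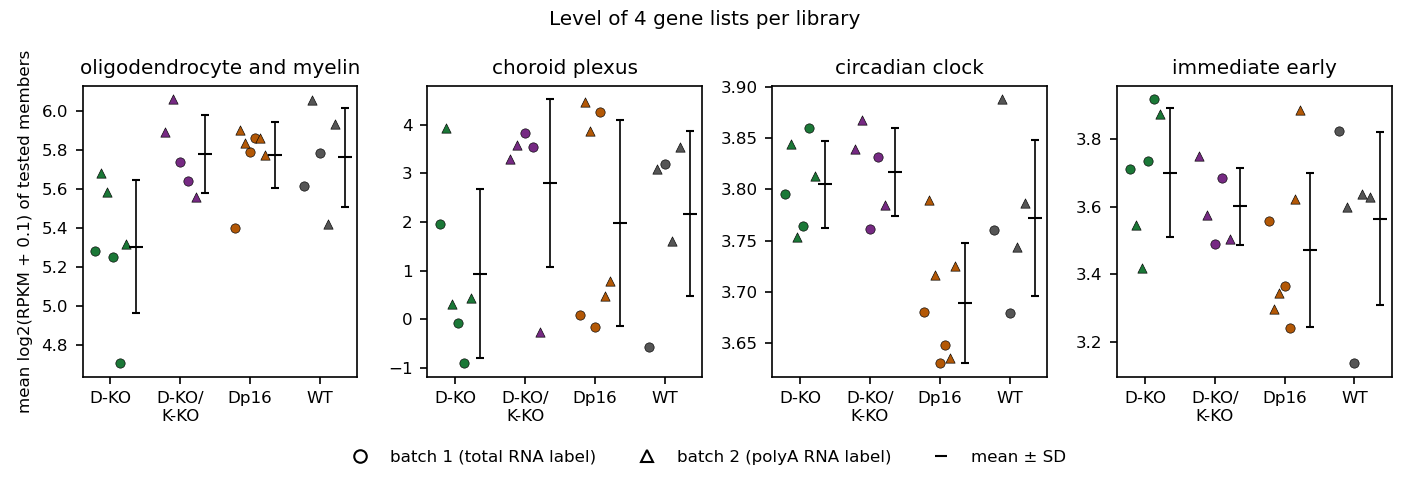
Mean log2(RPKM + 0.1) of the tested members of 4 lists per library, by group and batch, with the mean ± SD beside each group. The Dp16/D-KO libraries of batch 1 hold the lowest myelin levels, choroid plexus levels split every group, and 6 of the 7 Dp16 libraries lie below all 11 D-KO-labelled libraries in the clock list.

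Set beside WT in a fit of all 23 libraries, the 11 libraries gave 146 called genes (1.05%), 111 higher and 35 lower. Dp16 gave 190 (1.36%), and both comparisons share the WT libraries. WT lacks the duplication that both groups carry, so genes of the duplicated segment can enter both counts. The mean log2 level of the segment list was 3.85 in the 11 libraries, 3.85 in Dp16 and 3.32 in WT. The WT libraries F1 and M3 go against their sex letters in the Y-linked gene Ddx3y, and without them the first count was 109. WT M3, labelled batch 2, had 17.2 RPKM of Lrrc17, beside 1374 and 914 RPKM in the other WT libraries of batch 2 and 4.84 and 12.2 RPKM in those of batch 1. Batch is the covariate of every fit that holds WT libraries, and the part of that label in the count of 23 was not tested. For Pnrc2 the log2 change against WT was -0.06 in the 11 libraries and -0.38 in Dp16 (limma, adjusted p = 0.733 and 0.00149), and for Rfx5 -0.04 and -0.48 (adjusted p = 0.858 and 0.000233). For Eif4a1 it was 0.01 and -0.13 (adjusted p = 0.91 and 0.0345), for Il33 0.11 and 0.45 (adjusted p = 0.697 and 0.0176) and for Cyp11a1 -0.35 and -0.87 (adjusted p = 0.124 and 2.51e-05). Without WT F1 and M3 the Dp16 values of Eif4a1 and Il33 were -0.13 and 0.34, no longer called (adjusted p = 0.18 and 0.0565). Chac1 stood on the other side: -0.47 in the 11 libraries and 0.20 in Dp16, neither called (adjusted p = 0.147 and 0.642). Gnb5 was higher than WT in the 11 libraries by 0.19 (adjusted p = 0.00419) and had 0.07 in Dp16 (adjusted p = 0.422).

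The authors' deposited table gives adjusted p-values of its own for each label. Among the genes tested here it holds 40 under 0.05 for Dp16;D-KO/K-KO against Dp16 and 70 for Dp16/D-KO against Dp16, of which 3 and 46 were also called here in the same comparison. For Dp16;D-KO/K-KO against Dp16/D-KO the authors' deposited table holds 42, where the fit here gave 0. Of the 164 genes called here in the pooled comparison, 23 have an authors' adjusted p under 0.05 for Dp16/D-KO against Dp16. In the authors' deposited table Rec8 has log2 changes of 1.46 in Dp16;D-KO/K-KO and 0.82 in Dp16/D-KO, with adjusted p of 0.000319 and 0.135. The authors' adjusted p is under 0.05 in both labels for Rfx5 and Krt9. Pnrc2 has 0.0393 in Dp16/D-KO and 0.0985 in Dp16;D-KO/K-KO, and Chac1 has 0.122 and 0.00475. Scd1, Il33 and Tef are above 0.05 in both labels. Their values are 0.0694, 0.0542 and 0.287 in Dp16/D-KO and 0.678, 0.627 and 0.713 in Dp16;D-KO/K-KO.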

How the data were processed

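The genotype label gave the group, the molecule label the batch and the letter of each title the sex. The deposited table holds an RPKM value per gene and library as computed by the authors, beside the authors' log2 fold changes and p-values for pairs of groups. HISAT and mm10 are named per the submitters' processing notes. The counting step and the authors' test are not stated in those sources. Values exist for 19064 of 21785 genes. Steps between low values of 385 short genes, searched only from 10 to 20 M reads, put the depth of the 18 libraries at 14.95 to 17.4 M reads. Only 43.2% to 58.7% of those values came within 0.15 read of a whole number. The median share over the depths searched was 23.7% to 32.3%. No read counts were therefore recovered, and no counting interval is given.

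Tests ran in limma 3.58.1 (R 4.3.3) on log2(RPKM + 0.1), which understates the change of low genes. They used an intensity trend, batch as covariate, the 18 libraries of the comparison and Benjamini-Hochberg adjustment over 13971 genes, all two-sided. The procedure was tested on simulated data. Alternatives changed the pseudocount, filter, scaling, covariates, trend or libraries, or added a replicate block. Replicate labels were not taken to pair libraries, since the labels do not state a pairing. Deviations of 14 same-label pairs correlated by 0.0342 on average, and 8 pairs exceeded 0.1. The mean was -0.0123 in 16 pairs of other labels with the same sex letter, of which 5 exceeded 0.1. In 24 other pairs it was -0.176, and 1 exceeded 0.1. Same-label pairs thus had the highest mean, and whether the labels pair libraries was not tested.

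Named genes are Dyrk1a and Kcnj6, the 15 higher and 15 lower called genes of at least 1 RPKM with the largest change, the 5 of each with the smallest adjusted p, up to 4 called members of each of 34 lists or else the 2 with the smallest p, and genes without overlap. A gene that the rule names is not reported here. Members, lists and tests were chosen with earlier results of these data known. Motifs and the tRNA synthetase, RFX and near-identical-copy lists were added after values were seen. Promoter windows came from RefSeq.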

Additional observations from a re-analysis of the deposited data

Results flagged for a closer look

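Among 156 gene-and-group sets, 4 held a library that stood far from the others of its group by Dixon's test, and chance alone marks about 1 set in 20. Entpd4b was at 27.53 RPKM in Dp16;D-KO/K-KO M3, with the next library at 20.59 and the lowest at 18.37. Eif4a1 was at 124.56 RPKM in Dp16 M2, with the next at 120.34 and the lowest at 117.14. In Dp16 M3, Cops8 was at 36.93 RPKM, with the next at 40.3 and the highest at 41.42, and H3f3b was at 68.23 RPKM, with the next at 75.78 and the highest at 80.24. Cops8 and Eif4a1 stayed called whichever single library was left out.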

How the results depend on the processing

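The count of called genes depended on the fit. Against 164 for the 11 libraries, 136 for Dp16/D-KO, 5 for Dp16;D-KO/K-KO and 0 between those labels, no filter on low values gave 93, 65 and, between the labels, 2. Median-ratio scaling gave 66 for Dp16/D-KO, 14 for Dp16;D-KO/K-KO and 4 genes without overlap. Sex letter beside batch gave 11 for Dp16;D-KO/K-KO. No covariate gave 1 for the 11 libraries, 0 for Dp16/D-KO and 3 for Dp16;D-KO/K-KO, and no intensity trend gave 83 for the 11. With all 23 libraries the counts were 23 and, for Dp16/D-KO, 16. Myelin level as covariate gave 0 for Dp16/D-KO and 17 for Dp16;D-KO/K-KO, and choroid plexus level gave 342 for the 11 and 267 for Dp16/D-KO. In batch 1 alone and in batch 2 alone all of these were 0, with fewer libraries. For the other changes the cause was not tested. Leaving out 1 library gave 49 to 215 for the 11, 8 to 180 for Dp16/D-KO, 3 to 17 for Dp16;D-KO/K-KO and 0 to 2 between the labels.

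With a replicate block the counts were 13 for the 11 libraries, 11 for Dp16/D-KO and 4 for Dp16;D-KO/K-KO, but the labels do not show that numbers pair libraries. No named called gene changed sign under any of these alternatives. The RPKM give no counts, so depth limits low genes such as Rec8 most.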
